A study of Mus musculus with 36 samples.

Results

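Heparan sulfate (HS) is built by a set of enzymes of which 8 were followed here on every array probe set that carried their name: *Ext1*, *Ext2*, *Ndst2*, *Ndst3*, *Ndst4*, *Glce*, *Hs2st1* and *Hs6st1*. They are 8 of 12393 genes with a probe set of their own, and were read from 12 of the 22626 probe sets tested. *Glce* and *Ndst4* each had a pair of probe sets, *Hs2st1* had 3, and the other genes 1. The genes were taken as a list of enzymes, chosen with earlier results of these data known.

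The samples were 36 tumors in 8 groups: 67NR and 66cl4 mouse mammary tumor lines, each grown in BALB/c mice and in NSG mice, with 3 control tumors and 6 tumors labelled BPTF KD for each line and host. 67NR tumors were taken on day 21 and 66cl4 tumors on day 28 after injection into the fourth mammary fat pad of female mice aged 6 to 8 weeks. Both arms of the comparison carried a retroviral short hairpin RNA (shRNA), and BPTF KD tumors carried an shRNA against *Bptf*, of which the study used a pair. The labels do not give the hairpin of a tumor, so that p-values reflect the spread between tumors and not between separately made knockdown lines. NSG mice (spelled NOD/SCID/Ifrg2r -/- in the labels) lack T, B and NK cells, whereas BALB/c mice are immune competent and matched to both lines. Necrotic tissue was cut away before total RNA was extracted, and each tumor was a mix of cancer and host cells.

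HS is a long sugar chain carried by proteoglycans of the cell surface and matrix. EXT1 and EXT2 polymerize the chain as a complex, NDST enzymes swap N-acetyl for N-sulfate groups, GLCE turns glucuronic into iduronic acid, and the 2-O- and 6-O-sulfotransferases HS2ST1 and HS6ST1 add further sulfates. The resulting pattern of sulfates sets which growth factors, chemokines and receptors bind, and HS chains are known co-ligands of the natural cytotoxicity receptors of NK cells. BPTF is the largest subunit of the chromatin remodeler NURF. The question was whether tumors labelled BPTF KD carried other mRNA levels of the enzymes that make and sulfate HS than control tumors did, and how line and host set these levels.

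Values are log2 intensities after robust multi-array averaging (RMA), so that a difference of 1 is a 2-fold change. The 36 arrays had medians from 7.03 to 7.21 and correlated at 0.918 to 0.9961 with each other. *Bptf*, the targeted gene, passed its test in 1 of 4 comparisons: on its brightest probe set (1456615_a_at) all 6 BPTF KD tumors of 66cl4 in BALB/c mice lay below all controls (-1.09 log2, exact permutation p = 0.0119, the smallest that 84 splits of 9 tumors can give). The difference was -0.33 in 66cl4 and -0.27 in 67NR tumors from NSG mice, with 5 and 3 of 6 tumors below all controls (exact permutation p = 0.0595 and 0.3214). In 67NR tumors from BALB/c mice it was -0.06 (exact permutation p = 0.9286), with 1 tumor labelled BPTF KD below and 2 above all controls. The other 3 *Bptf* probe sets (1427310_at, 1439102_at and 1427311_at) gave -1.84, -0.14 and -1.29 in 66cl4 and -0.27, 0.03 and -0.62 in 67NR tumors of BALB/c mice, and -0.38, 0.30 and -0.29 in 66cl4 and -0.76, 0.06 and -0.78 in 67NR tumors of NSG mice. Of the last 9 of these values only the 0.30, with all 6 BPTF KD tumors above all controls, passed (exact permutation p = 0.0119), and 4 of 6 tumors or more lay below all controls on 1427311_at in each. Directions given for 67NR and for NSG mice therefore follow the labels of the tumors, not their *Bptf* level. Markers of the epithelial list (8 of 8 genes measured), the cell type both lines come from, were at a mean of 5.01 to 7.1 in 67NR and 6.34 to 8.06 in 66cl4 tumors. A skeletal muscle list (8 of 8 genes) set libraries apart: its mean was 6.97 to 11.56 in 66cl4 tumors of BALB/c mice and 12 in replicate 3 of the 67NR tumors labelled BPTF KD in BALB/c mice, beside 6.02 to 6.1 in the 67NR controls there and 5.19 to 7.55 in NSG mice.

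Of the 8 genes, *Hs6st1* and *Ndst3* gave the only enzyme calls in a comparison of BPTF KD with control tumors, and the RefSeq sequence around their annotated starts (GRCm38.p6) is shown for that reason. Each run covers 250 bases before and 50 after the start, read 5′ to 3′ on the strand of the gene, with each CG pair in capitals. *Ndst3* has a pair of annotated starts.
Hs6st1, chr1:36068150-36068449, plus strand: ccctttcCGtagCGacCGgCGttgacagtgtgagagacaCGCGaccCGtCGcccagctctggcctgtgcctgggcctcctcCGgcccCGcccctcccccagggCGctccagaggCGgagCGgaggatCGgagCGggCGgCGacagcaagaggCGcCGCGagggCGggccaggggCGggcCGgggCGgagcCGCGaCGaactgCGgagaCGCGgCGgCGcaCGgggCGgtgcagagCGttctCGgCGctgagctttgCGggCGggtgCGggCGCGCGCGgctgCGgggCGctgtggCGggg
Ndst3, chr3:123672428-123672727, minus strand: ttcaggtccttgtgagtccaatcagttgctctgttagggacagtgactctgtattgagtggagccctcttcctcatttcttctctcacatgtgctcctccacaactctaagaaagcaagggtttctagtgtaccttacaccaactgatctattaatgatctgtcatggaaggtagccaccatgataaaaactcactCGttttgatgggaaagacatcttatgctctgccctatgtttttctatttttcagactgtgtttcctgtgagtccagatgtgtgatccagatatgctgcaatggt
Ndst3, chr3:123619401-123619700, minus strand: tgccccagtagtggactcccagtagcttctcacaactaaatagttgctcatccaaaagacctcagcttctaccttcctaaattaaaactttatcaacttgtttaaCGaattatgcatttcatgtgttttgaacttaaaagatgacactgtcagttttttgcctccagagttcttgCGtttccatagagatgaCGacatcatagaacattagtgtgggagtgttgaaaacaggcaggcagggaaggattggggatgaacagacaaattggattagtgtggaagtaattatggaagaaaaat
The *Hs6st1* window held 47 CG pairs at 78.0% G and C, and 1.44% of 32851 promoters of the same length held as many. The *Ndst3* windows held 1 and 3 CG pairs at 43.0% and 39.0% G and C, counts reached by 94.6% and 76.7% of promoters, where the median was 7. The letters GGGCGG, a GC box, occurred 6 times on the strand of *Hs6st1* and 1 time on the other strand, and at neither start of *Ndst3*, while 35.7% of promoters held them on either strand. Matches of these letters overlap the CG pairs and are a description of the sequence only. Windows were found for 6 of the 8 genes, and those of *Ext1* and *Ndst4* were not analysed here.

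**Figure D1:**
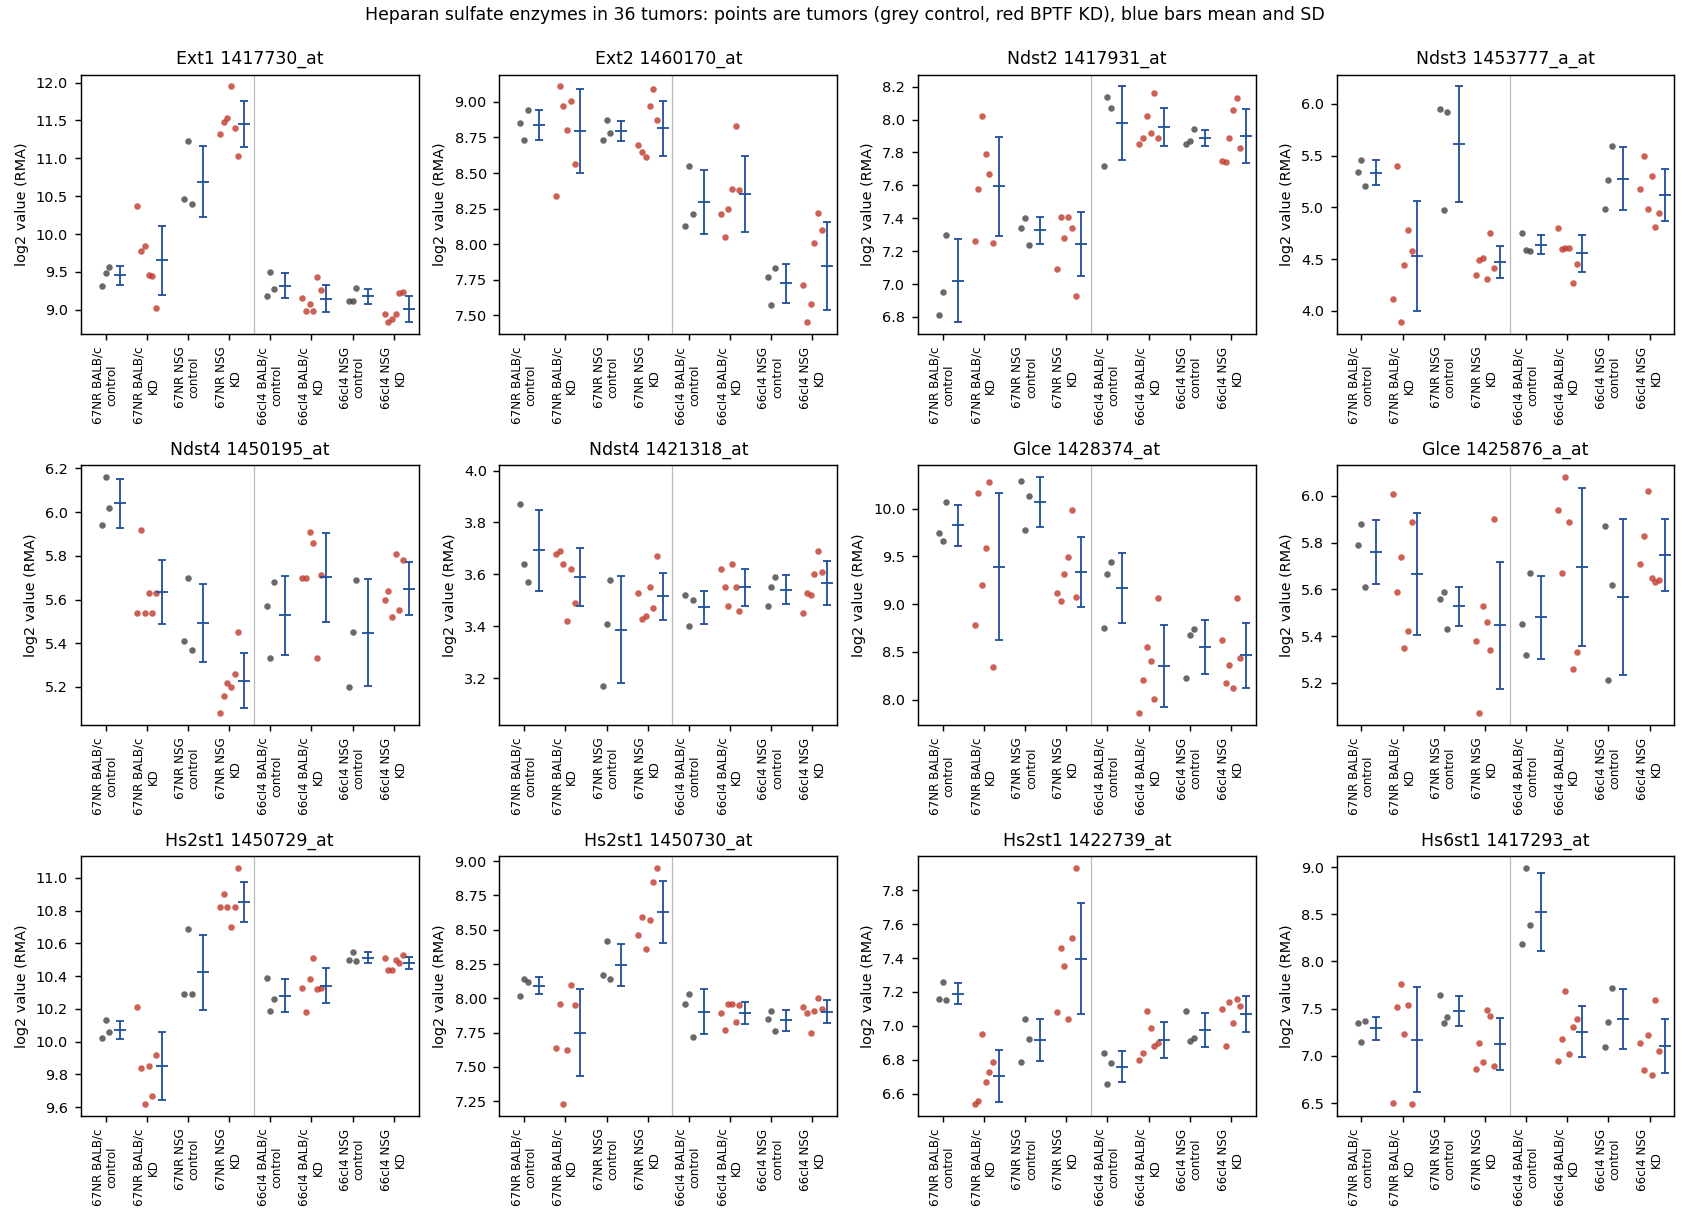
Log2 RMA value of each of the 12 probe sets of 8 HS enzymes (y axes, each on its own range) in 36 tumors by line, host and label (x axes); grey points are control and red points BPTF KD tumors, and blue bars are the mean and SD of a group. Control tumors of 66cl4 in BALB/c mice stand above the other groups in *Hs6st1* (8.19 to 8.99), and 67NR tumors of NSG mice in *Ext1* (10.39 to 11.95).

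Tumors labelled BPTF KD differed from controls in 1 HS enzyme in each of a pair of comparisons and in none in the others. *Hs6st1* was lower in 66cl4 tumors from BALB/c mice, and *Ndst3* was lower in 67NR tumors from NSG mice. Limma, adjusted over all probe sets, called 1 of 12 enzyme probe sets in 66cl4 in BALB/c mice, where 0.283% of all probe sets were called (64 of 22626), and 1 of 12 in 67NR in NSG mice, where 0.963% were called (218 of 22626). It called 0 of 12 in 67NR in BALB/c mice and 0 of 12 in 66cl4 in NSG mice, where 0.0% of all probe sets were called. In the last of these no enzyme probe set had groups that did not overlap (4.54% of all probe sets). At an unadjusted p under 0.05 by limma, 4 of 12 passed in 67NR in BALB/c mice against 7.84% of all probe sets, 2 of 12 in 66cl4 in BALB/c mice against 24.6%, 7 of 12 in 67NR in NSG mice against 14.0%, and 0 of 12 in 66cl4 in NSG mice against 8.12%. The median difference over the 12 probe sets was -0.17, 0.02, -0.03 and 0.02 in these comparisons, beside -0.02, 0.02, 0.02 and 0.01 over all probe sets. The enzymes thus did not move as one: the probe sets that passed at an unadjusted p in 67NR tumors from NSG mice were higher for *Ext1* and *Hs2st1* and lower for *Ndst3*, *Ndst4* and *Glce*.

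**Figure D2:**
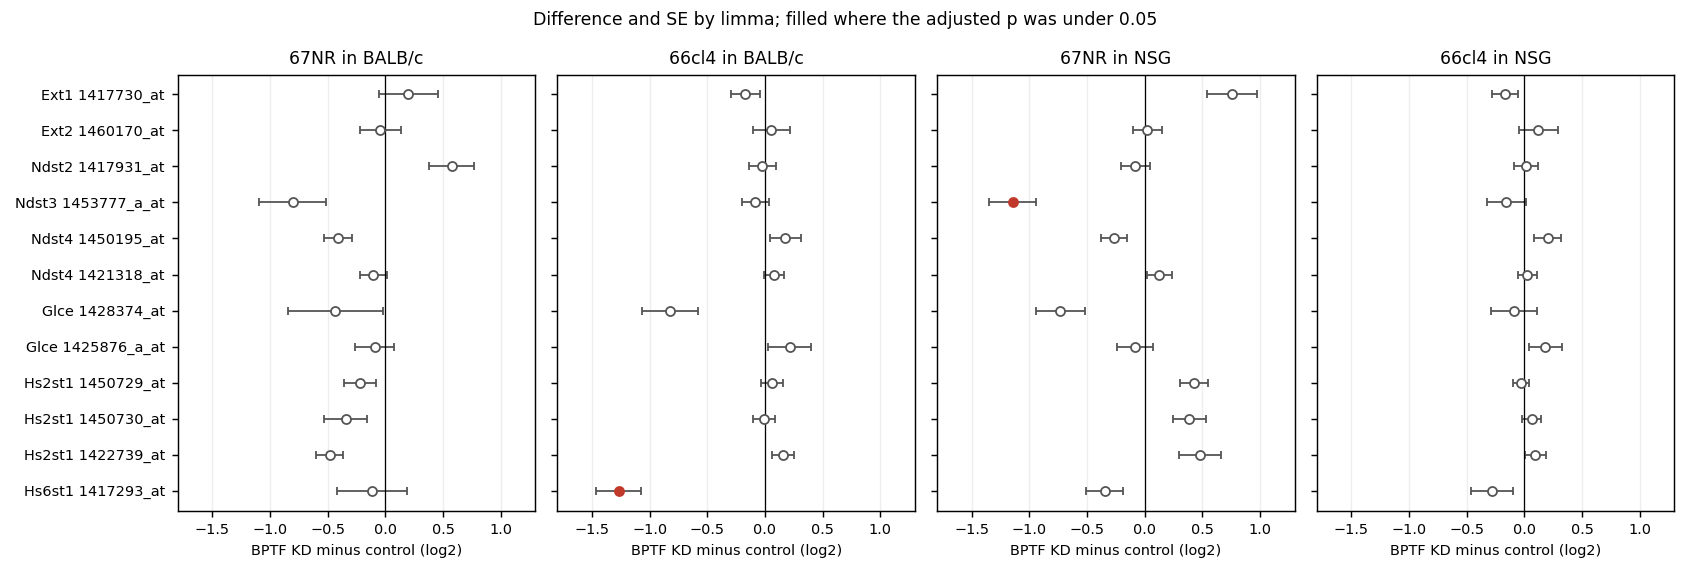
BPTF KD minus control difference in log2 value (x axis, with SE by limma) for 12 probe sets of HS enzymes (y axis) in 67NR and 66cl4 tumors of BALB/c and NSG mice, 3 control and 6 BPTF KD tumors each; filled points have an adjusted p under 0.05. *Hs6st1* in 66cl4 of BALB/c mice (-1.27) and *Ndst3* in 67NR of NSG mice (-1.14) are the filled points.

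*Hs6st1* codes for the sulfotransferase that adds sulfate to the 6-O position of glucosamine, a modification that fibroblast growth factor signalling needs. In 66cl4 tumors from BALB/c mice, probe set 1417293_at was at 8.19, 8.99 and 8.39 in the controls and from 6.95 to 7.69 with a median of 7.25 in the 6 BPTF KD tumors. All 6 lay below all controls, by 2.41-fold on average (-1.27 ± 0.20 SE, limma adjusted p = 0.0457). The groups did not overlap in this 1 of 12 enzyme probe sets, as in 8.69% of all probe sets. The controls were also the highest group of the series: in the other 7 groups *Hs6st1* ran from 6.49 to 7.76. In 67NR tumors from BALB/c mice control values were 7.35, 7.15 and 7.37 and tumors labelled BPTF KD ran from 6.49 to 7.76, a difference of -0.12 ± 0.30 SE (adjusted p = 0.945 by limma). In NSG mice the difference was -0.35 ± 0.16 SE in 67NR (adjusted p = 0.377) and -0.28 ± 0.18 SE in 66cl4 (adjusted p = 0.758), both by limma.

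The call on *Hs6st1* lay close to the threshold. Without 1 tumor at a time the difference ran from -1.43 to -1.03 and the limma adjusted p from 0.00768 to 0.146. The call was lost in 6 of 9 such fits: without control replicate 2 (-1.03, adjusted p = 0.108) or 3 (-1.33, 0.146), or without BPTF KD replicate 1 (-1.21, 0.106), 2 (-1.25, 0.0822), 4 (-1.22, 0.0804) or 5 (-1.28, 0.0859). It was also lost by the methods' t-test (adjusted p = 0.189), with a replicate block (-1.25, 0.101) and with an RNA integrity term (-1.08, adjusted p = 0.184 by limma). In the replicate block, BPTF KD replicates 4 to 6 have no control of their number and do not enter the difference. The integrity term averages how far the 3′ exceeded the 5′ control probe sets for beta-actin and *Gapdh*, and it was 0.47 to 0.82 in the controls and 0.72 to 0.88 in the BPTF KD tumors. T cell markers (6 of 7 genes measured) were at a mean of 6.17 to 6.58 in these controls and 6.71 to 7.72 in the BPTF KD tumors, B cell markers (3 of 4 genes) at 5.23 to 5.52 and 6.0 to 6.67, and NK cell markers (4 of 5 genes) at 6.8 to 7.19 and 7.32 to 8.26. Skeletal muscle markers were at 9.07 to 11.33 and 6.97 to 11.56, so that these groups overlapped. The part of these cells in the *Hs6st1* difference was not tested. In whole tumors, fewer cells of a type and less RNA per cell cannot be told apart.

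*Ndst3* codes for an N-deacetylase and N-sulfotransferase, the enzyme that opens the way for later sulfation. It was among the dimmest of the enzymes, with a mean of 4.85 over all tumors on 1453777_a_at, and lay outside the brightest 75% of probe sets. In 67NR tumors from NSG mice the 3 controls gave 5.95, 4.97 and 5.92, whereas the 6 tumors labelled BPTF KD ranged from 4.31 to 4.75 with a median of 4.45. All 6 lay below all controls (-1.14 ± 0.20 SE, 2.21-fold lower, limma adjusted p = 0.0319), and groups that did not overlap were found in 2 of 12 enzyme probe sets and 6.8% of all probe sets. The control nearest to the tumors labelled BPTF KD was replicate 2, and without it the difference was -1.47. In 67NR tumors from BALB/c mice the controls gave 5.34, 5.46 and 5.21 and tumors labelled BPTF KD 3.89 to 5.40 with a median of 4.51. There 5 of 6 lay below all controls, but the spread between tumors was wider (-0.80 ± 0.29 SE, adjusted p = 0.582 by limma). In 66cl4 tumors *Ndst3* differed by -0.08 ± 0.12 SE in BALB/c and -0.16 ± 0.17 SE in NSG mice (adjusted p = 0.724 and 0.882 by limma).

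The *Ndst3* call in 67NR tumors from NSG mice was lost in 7 of the 9 fits without 1 tumor. The difference without control replicate 1 or 3 was -0.98 and -0.99 (adjusted p = 0.202 and 0.235 by limma), and without BPTF KD replicate 1, 2, 3, 4 or 6 it was -1.12, -1.15, -1.15, -1.11 and -1.13 (adjusted p = 0.0707, 0.0677, 0.076, 0.0705 and 0.0538). With RNA integrity as a term it was -1.11 (adjusted p = 0.0669 by limma), and by the methods' t-test the adjusted p was 0.149. The 3′ minus 5′ difference was 0.46 to 0.54 in these controls and 0.41 to 0.81 in the tumors labelled BPTF KD. Epithelial markers (8 of 8 genes) were at 5.59 to 5.96 in these controls and 6.15 to 6.81 in the tumors labelled BPTF KD, with no overlap. Fibroblast markers (9 of 9 genes) were at 9.99 to 10.57 and 10.42 to 11.47, and proliferation markers (5 of 6 genes) at 10.97 to 11.07 and 10.32 to 10.99. Their part in the *Ndst3* difference was not tested.

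Among the chain polymerases, *Ext1* on 1417730_at was at 10.46, 11.23 and 10.39 in the controls of 67NR in NSG mice and at 11.03 to 11.95 with a median of 11.44 in the tumors labelled BPTF KD. Of these, 5 of 6 lay above all controls (0.76 ± 0.22 SE, adjusted p = 0.145 by limma). Without control replicate 2, the highest control, the difference was 1.03 (adjusted p = 0.0301 by limma). In the other comparisons *Ext1* differed by 0.20 ± 0.26 SE in 67NR in BALB/c mice, -0.17 ± 0.12 SE in 66cl4 in BALB/c mice and -0.17 ± 0.11 SE in 66cl4 in NSG mice. Its partner *Ext2* (1460170_at) stayed within -0.04 to 0.12 in all 4 comparisons, where the SE ran from 0.13 to 0.18. Neither subunit of the polymerase passed the test in any of these comparisons.

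The other N-deacetylase and N-sulfotransferases gave no call. *Ndst2*, the form abundant in mast cells, where heparin is made, was at 6.81, 6.95 and 7.30 in the controls of 67NR in BALB/c mice and at 7.25 to 8.02 in the tumors labelled BPTF KD (0.58 ± 0.20 SE, adjusted p = 0.582 by limma, 4 of 6 above all controls). The 8.02 was replicate 3, the tumor high in skeletal muscle markers. That tumor was also the highest of its group in *Hs6st1* (7.76). It was the lowest in *Ndst3* (3.89) and in *Hs2st1* on 1450729_at (9.62) and 1450730_at (7.23). The part of muscle in these values was not tested. In the other comparisons *Ndst2* differed by -0.08 to 0.01. *Ndst4* on 1450195_at was at 5.94, 6.16 and 6.02 in the same controls and at 5.54 to 5.92 in the tumors labelled BPTF KD. All 6 lay below all controls (-0.41 ± 0.12 SE, adjusted p = 0.574 by limma), as did 1 further enzyme probe set, so that 2 of 12 did not overlap against 5.77% of all probe sets. The difference in *Ndst4* was -0.27 ± 0.12 SE in 67NR in NSG mice and 0.18 ± 0.14 SE and 0.20 ± 0.12 SE in 66cl4 in BALB/c and NSG mice. The second probe set of *Ndst4* (1421318_at) was dim, from 3.17 to 3.87 over all tumors, differed by -0.10 to 0.13 and correlated with the first at r = 0.407 over 36 tumors.

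*Glce*, the epimerase that makes iduronic acid and with it a flexible chain, had its lower values in tumors labelled BPTF KD on the brighter of its probe sets (1428374_at). In 66cl4 tumors from BALB/c mice control values were 8.75, 9.32 and 9.44 and BPTF KD tumors lay at 7.86 to 9.06 with a median of 8.31, where 5 of 6 lay below all controls (-0.82 ± 0.25 SE, adjusted p = 0.0854 by limma). In 67NR tumors from NSG mice control values were 10.29, 9.78 and 10.13 and tumors labelled BPTF KD lay at 9.03 to 9.99 with a median of 9.22, again with 5 of 6 below all controls (-0.73 ± 0.21 SE, adjusted p = 0.143 by limma). Neither passed the threshold. With a replicate block the difference in 67NR was -0.91 (adjusted p = 0.0205 by limma). That block leaves BPTF KD replicates 4 to 6 out of the difference, because no control has their number. The limma adjusted p fell to 0.0272 and 0.0384 in 66cl4 without control replicate 1 (-1.03) or BPTF KD replicate 6 (-0.96), and to 0.0159 in 67NR without BPTF KD replicate 5 (-0.86). The difference was -0.43 ± 0.41 SE in 67NR in BALB/c mice and -0.09 ± 0.20 SE in 66cl4 in NSG mice. The dimmer probe set of *Glce* (1425876_a_at) disagreed: it differed by -0.09, 0.22, -0.08 and 0.18 in 67NR and 66cl4 of BALB/c and of NSG mice, and correlated with the brighter at r = -0.345 over 36 tumors, a figure that pools lines, hosts and labels.

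*Hs2st1*, which sulfates iduronic acid at the 2-O position, was read by 3 probe sets, and all gave lower values in tumors labelled BPTF KD than in controls of 67NR in BALB/c mice and higher values in NSG mice. In BALB/c mice 1422739_at was at 7.16, 7.26 and 7.15 in controls and at 6.54 to 6.95 in the tumors labelled BPTF KD, all 6 below all controls (-0.48 ± 0.12 SE, adjusted p = 0.549 by limma). The other probe sets there, 1450729_at and 1450730_at, differed by -0.22 ± 0.14 SE and -0.34 ± 0.19 SE. In NSG mice 1450729_at was at 10.29, 10.69 and 10.29 in controls and at 10.70 to 11.06 in the tumors labelled BPTF KD, all 6 above all controls (0.43 ± 0.12 SE, adjusted p = 0.136 by limma). There 1450730_at and 1422739_at differed by 0.39 ± 0.14 SE and 0.48 ± 0.18 SE, each with 5 of 6 tumors above all controls (adjusted p = 0.251 and 0.259 by limma). The difference between hosts was tested as an interaction and did not pass: it was 0.65 ± 0.18 SE, 0.73 ± 0.24 SE and 0.96 ± 0.22 SE for the 3 probe sets (adjusted p = 0.467, 0.536 and 0.32 by limma). In 66cl4 tumors the 3 probe sets lay between -0.03 and 0.16. The 3 probe sets read the same gene and correlated with each other at r = 0.668 to 0.680 over 36 tumors, so that they do not count as independent measurements.

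Differences of the BPTF KD effect between lines or hosts passed for none of the 12 enzyme probe sets in any of 4 limma interaction tests. Of all probe sets, 0.0%, 0.663%, 0.0% and 0.0% passed between lines in BALB/c mice, between lines in NSG mice, between hosts in 67NR and between hosts in 66cl4. The smallest adjusted p of an enzyme was 0.416 between lines in BALB/c mice, 0.125 between lines in NSG mice, 0.32 between hosts in 67NR and 0.301 between hosts in 66cl4. At an unadjusted p under 0.05, 5, 4, 4 and 2 of the 12 passed, beside 9.76%, 10.0%, 6.55% and 11.9% of all probe sets. The effect on *Hs6st1* was lower in 66cl4 than in 67NR tumors of BALB/c mice by 1.15 ± 0.38 SE (adjusted p = 0.447), and lower in BALB/c than in NSG mice for 66cl4 by 0.99 ± 0.28 SE (adjusted p = 0.301), so that the call in 1 line and host was not shown to be particular to it. The effect on *Ndst3* in NSG mice differed between 67NR and 66cl4 by -0.99 ± 0.28 SE, and that on *Ext1* by 0.93 ± 0.26 SE (adjusted p = 0.135 and 0.125 by limma).

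Between the lines, both subunits of the chain polymerase were higher in 67NR than in 66cl4 tumors of NSG mice, whatever the label. In NSG mice *Ext1* was at 10.46, 11.23 and 10.39 in 67NR controls and at 9.12, 9.12 and 9.29 in 66cl4 controls (1.52 ± 0.22 SE, 2.86-fold, limma adjusted p = 0.00177). Among BPTF KD tumors in NSG mice it was at 11.03 to 11.95 in 67NR and 8.84 to 9.24 in 66cl4 (2.44 ± 0.13 SE, 5.43-fold, limma adjusted p = 1.21e-08). In BALB/c mice the same contrast was 0.14 ± 0.13 SE in controls and 0.51 ± 0.19 SE in BPTF KD tumors, neither of which passed (adjusted p = 0.523 and 0.102 by limma). *Ext2* was higher in 67NR by 0.54 ± 0.14 SE in BALB/c controls, 1.07 ± 0.11 SE in NSG controls and 0.97 ± 0.14 SE in NSG BPTF KD tumors (limma adjusted p = 0.0266, 0.000456 and 8.87e-05), and by 0.45 ± 0.16 SE in BALB/c BPTF KD tumors, which did not pass (0.0849). Macrophage markers (8 of 8 genes) were at 11.59 to 12.14 in 67NR and 12.64 to 13.01 in 66cl4 tumors of NSG mice, endothelial markers (5 of 5) at 6.99 to 7.86 and 5.9 to 6.57, and fibroblast markers (9 of 9) at 9.99 to 10.57 and 9.05 to 10.35 in controls and at 10.42 to 11.47 and 8.95 to 9.92 in BPTF KD tumors. Their part in the line differences was not tested. Line, day of harvest and number of cells injected cannot be told apart.

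Of the sulfating enzymes, *Ndst2* went the other way and was lower in 67NR than in 66cl4 tumors. It was at 6.81 to 7.30 against 7.72 to 8.14 in BALB/c controls and at 6.93 to 7.41 against 7.74 to 8.13 in NSG BPTF KD tumors. The differences were -0.96 ± 0.17 SE in BALB/c controls, -0.56 ± 0.10 SE in NSG controls and -0.66 ± 0.11 SE in NSG BPTF KD tumors (limma adjusted p = 0.00473, 0.00411 and 0.000216), and -0.36 ± 0.13 SE in BALB/c BPTF KD tumors, which did not pass (0.0991). *Glce* on 1428374_at was higher in 67NR by 0.65 ± 0.20 SE in BALB/c controls, 1.52 ± 0.18 SE in NSG controls and 0.87 ± 0.18 SE in NSG BPTF KD tumors (limma adjusted p = 0.0475, 0.000843 and 0.00182). The 1.04 ± 0.33 SE in BALB/c BPTF KD tumors did not pass (0.0562), and its second probe set passed in none of the 4. *Hs6st1* was lower in 67NR than in 66cl4 controls of BALB/c mice by 1.23 ± 0.20 SE (-1.23, limma adjusted p = 0.0032), and differed by -0.08 to 0.08 in the other 3 contrasts. In BALB/c controls skeletal muscle markers were at 6.02 to 6.1 in 67NR and 9.07 to 11.33 in 66cl4 tumors. Epithelial markers were at 5.01 to 5.38 against 6.47 to 6.86, and fibroblast markers at 9.19 to 9.59 against 9.72 to 10.5. Macrophage markers were at 12.1 to 12.2 against 12.77 to 12.99, and proliferation markers at 11.43 to 11.51 against 9.97 to 10.46. Endothelial (7.39 to 7.47 against 6.53 to 7.21) and NK cell markers (7.23 to 7.48 against 6.8 to 7.19) did not overlap either. T cell, B cell and adipocyte markers overlapped. Their part in the line differences of these controls was not tested.

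The remaining line calls were smaller. *Ndst3* was higher in 67NR in BALB/c controls (0.70 ± 0.12 SE, limma adjusted p = 0.00423) and lower in 67NR in NSG BPTF KD tumors (-0.65 ± 0.12 SE, 0.000646). *Ndst4* on 1450195_at showed the same pair of directions, at 0.51 ± 0.13 SE and -0.42 ± 0.08 SE (0.0253 and 0.00107). For *Hs2st1* the direction depended on probe set and group: 1450729_at was lower in 67NR in BALB/c BPTF KD tumors (-0.49 ± 0.11 SE, 0.0097) and higher in NSG BPTF KD tumors (0.37 ± 0.07 SE, 0.000953), 1450730_at was higher in NSG controls (0.40 ± 0.12 SE, 0.0301) and NSG BPTF KD tumors (0.73 ± 0.10 SE, 7e-05), and 1422739_at was higher in BALB/c controls (0.43 ± 0.11 SE, 0.0259). In all, limma called 7 of 12 enzyme probe sets between the lines in BALB/c controls against 23.6% of all probe sets, 1 in BALB/c BPTF KD tumors against 12.2%, 5 in NSG controls against 34.1% and 8 in NSG BPTF KD tumors against 39.3%. The 8 calls in NSG BPTF KD tumors and the 1 in BALB/c BPTF KD tumors held in all 12 fits without 1 tumor, and so did those of *Ext1*, *Ext2*, *Ndst2* and *Glce* in all 6 such fits of NSG controls and of *Ndst2*, *Ndst3* and *Hs6st1* in all 6 of BALB/c controls. Of these last, *Ndst2* and *Hs6st1* were lost by the methods' t-test (adjusted p = 0.057 and 0.0564) and *Ndst3* in the fit of all 36 tumors (0.0538). The *Hs2st1* call in NSG controls was lost without any 1 of the 6 tumors (0.32 to 0.46, limma adjusted p = 0.0508 to 0.0797). In BALB/c controls the call on *Ext2* was lost in every fit but that without 66cl4 replicate 2 (0.46 to 0.60, 0.0585 to 0.0897), on *Ndst4* in every fit but those without 66cl4 replicate 1 or 3 (0.42 to 0.56, 0.0543 to 0.106), on *Glce* in every fit but that without 66cl4 replicate 3 (0.44 to 0.73, 0.0507 to 0.15) and on *Hs2st1* in every fit but that without 66cl4 replicate 1 (0.38 to 0.45, 0.0611 to 0.106). With an RNA integrity term the 5 calls in NSG controls were all lost, with differences of 1.02 for *Ext1*, 0.74 for *Ext2*, -0.56 for *Ndst2*, 2.15 for *Glce* and 0.36 for *Hs2st1* (limma adjusted p = 0.0618 to 0.563), of which that of *Glce* was larger than without the term and that of *Ndst2* the same to 2 decimals. There the 3′ minus 5′ difference was 0.46 to 0.54 in 67NR and 0.62 to 0.69 in 66cl4, with no overlap, so that line and RNA integrity cannot be told apart in these 6 tumors.

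**Figure D3:**
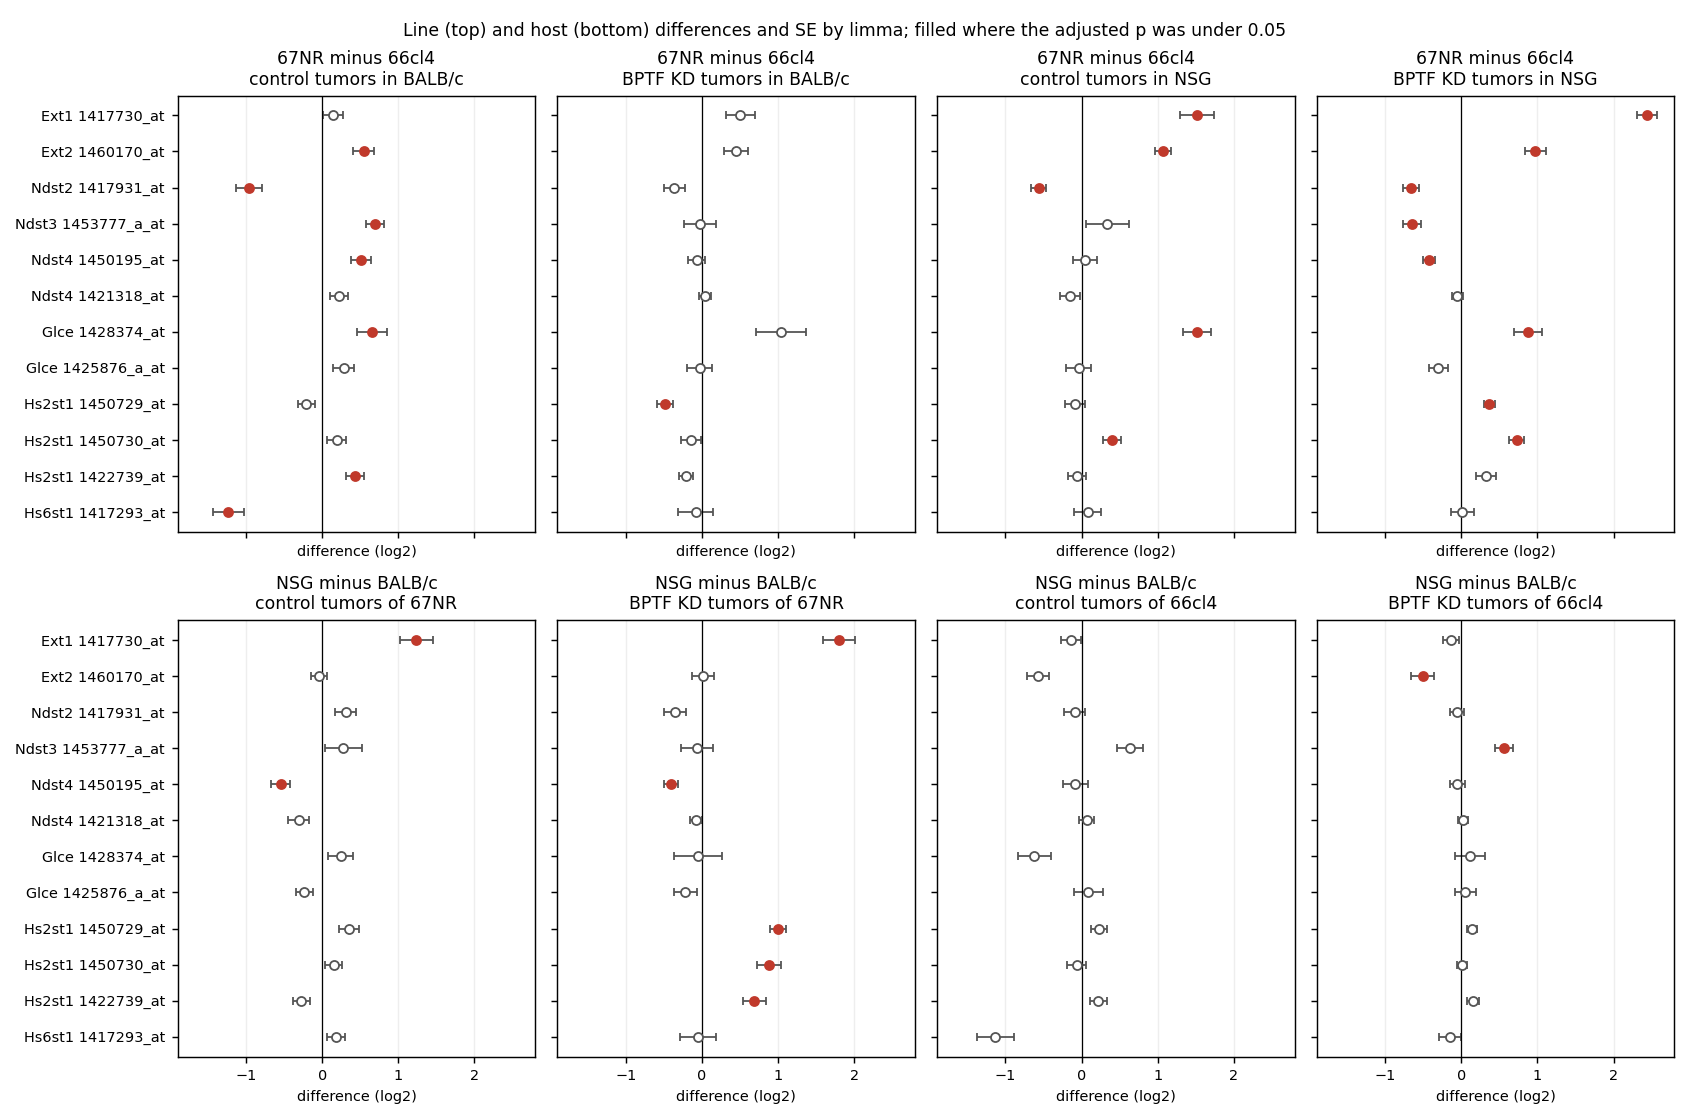
Log2 differences with SE by limma (x axes) for 12 probe sets of HS enzymes (y axes), 67NR minus 66cl4 in the top row and NSG minus BALB/c in the bottom row, each within control (3 against 3) or BPTF KD (6 against 6) tumors; filled points have an adjusted p under 0.05. *Ext1* lies to the right in 67NR tumors of NSG mice in both rows (1.52, 2.44, 1.24 and 1.80), and the 3 *Hs2st1* probe sets in NSG against BALB/c mice among 67NR BPTF KD tumors (0.69 to 1.00).

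Between hosts, *Ext1* was higher in 67NR tumors from NSG than from BALB/c mice, and was not called in 66cl4 tumors. Controls were at 10.46, 11.23 and 10.39 in NSG and 9.32, 9.48 and 9.57 in BALB/c mice (1.24 ± 0.21 SE, 2.36-fold, limma adjusted p = 0.0156), and tumors labelled BPTF KD at 11.03 to 11.95 and 9.02 to 10.37 (1.80 ± 0.21 SE, 3.48-fold, limma adjusted p = 0.000212). In 66cl4 the host difference was -0.14 ± 0.13 SE in controls and -0.14 ± 0.10 SE in BPTF KD tumors. Whether the host difference itself differed between lines was not tested. In 67NR controls the call held in 4 of 6 fits without 1 tumor. It was lost without BALB/c control replicate 1 (1.17, adjusted p = 0.0772 by limma) or 2 (1.25, 0.0576), where the difference itself stayed close to 1.24. By the methods' t-test the adjusted p was 0.146. With an RNA integrity term the difference was 0.11 (adjusted p = 0.998 by limma). The 3′ minus 5′ difference was 0.46 to 0.54 in NSG and 0.77 to 0.86 in BALB/c controls of 67NR, with no overlap. Host and RNA integrity therefore cannot be told apart in these controls. Fibroblast markers (9 of 9 genes) were at 9.99 to 10.57 in NSG and 9.19 to 9.59 in BALB/c controls, and at 10.42 to 11.47 and 8.92 to 11.57 in tumors labelled BPTF KD, and their part in the *Ext1* difference was not tested. Among tumors labelled BPTF KD the *Ext1* call held in all 12 fits without 1 tumor, from 1.67 to 1.94, and with an RNA integrity term.

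*Hs2st1* was higher in NSG than in BALB/c mice on all 3 probe sets among 67NR tumors labelled BPTF KD. On 1450729_at these were at 10.70 to 11.06 in NSG and 9.62 to 10.21 in BALB/c mice, on 1450730_at at 8.36 to 8.95 and 7.23 to 8.10, and on 1422739_at at 7.04 to 7.93 and 6.54 to 6.95. None of the ranges overlapped, as in 5 of the 12 enzyme probe sets and 7.7% of all probe sets in this contrast. The differences were 1.00 ± 0.11 SE, 0.88 ± 0.16 SE and 0.69 ± 0.15 SE (limma adjusted p = 0.000139, 0.00292 and 0.00796), and each held in all 12 fits without 1 tumor, among them the one without the tumor high in muscle markers. In 67NR controls the same probe sets differed by 0.35 ± 0.13 SE, 0.15 ± 0.11 SE and -0.27 ± 0.11 SE and were not called. In 66cl4 tumors they differed by -0.06 to 0.23 in both labels and were not called.

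The other host calls were lower *Ndst4* on 1450195_at in 67NR tumors from NSG mice (-0.55 ± 0.13 SE in controls, -0.41 ± 0.09 SE in tumors labelled BPTF KD, limma adjusted p = 0.0365 and 0.013), and, in BPTF KD tumors of 66cl4, higher *Ndst3* (0.56 ± 0.12 SE, 0.00761) and lower *Ext2* in NSG mice (-0.51 ± 0.15 SE, 0.0439). The *Ndst4* call in controls was lost in 5 of 6 fits without 1 tumor (-0.60 to -0.49, adjusted p = 0.0632 to 0.133 by limma), namely all but the one without NSG control replicate 2. The methods' t-test gave it an adjusted p of 0.145, and an RNA integrity term moved the difference to -1.06 (adjusted p = 0.998 by limma). RNA integrity did not overlap between these controls of the hosts, so that host and RNA integrity cannot be told apart there. The *Ext2* call was lost in 9 of 12 such fits, without NSG BPTF KD replicate 1, 2, 3 or 4 or BALB/c BPTF KD replicate 1, 3, 4, 5 or 6 (-0.54 to -0.41, adjusted p = 0.0569 to 0.1 by limma). In 66cl4 controls *Hs6st1* was at 7.09, 7.36 and 7.72 in NSG and 8.19, 8.99 and 8.39 in BALB/c mice, and just missed the threshold (-1.13 ± 0.24 SE, adjusted p = 0.0522 by limma). Skeletal muscle markers were at 5.19 to 7.09 in these NSG and 9.07 to 11.33 in these BALB/c controls, and their part in the difference was not tested. In all, 2, 5, 0 and 2 of the 12 enzyme probe sets were called between hosts in 67NR controls, 67NR tumors labelled BPTF KD, 66cl4 controls and 66cl4 BPTF KD tumors, against 8.26%, 14.2%, 3.31% and 11.0% of all probe sets. Limma gave an unadjusted p under 0.05 to 4 of the 12 in 66cl4 controls, beside 29.9% of all probe sets. Host strain and any batch of arrays cannot be told apart.

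Of 36 other genes of the HS pathway that were listed, 26 were measured on 46 probe sets and 10 were not analysed here, the measured ones being enzymes for the linker to the core protein, chain elongation, precursors, sulfation, and removal or breakdown. None of the 46 was called by limma in any of the 4 comparisons of BPTF KD with control tumors. Of all probe sets, 0.0%, 0.283%, 0.963% and 0.0% were called in 67NR and 66cl4 of BALB/c and of NSG mice, so that no call among 46 is near that share. The median difference of the 46 was 0.08, 0.01, 0.04 and 0.04 in the same order. The lowest p in each comparison belonged to *Hs6st2*, a second 6-O-sulfotransferase, in 67NR in BALB/c mice (4.19 to 4.60 in controls, 5.14 to 7.68 in tumors labelled BPTF KD, 1.86 ± 0.49 SE, adjusted p = 0.574), *Gusb*, a lysosomal glucuronidase, in 66cl4 in BALB/c mice (10.76 to 11.32 in controls, 10.06 to 10.74 in BPTF KD tumors, -0.76 ± 0.16 SE, 0.0588), *Fam20b*, a kinase of the linker, in 67NR in NSG mice (-0.48 ± 0.11 SE, 0.0835) and *Hs3st3a1*, a 3-O-sulfotransferase, in 66cl4 in NSG mice (0.27 ± 0.11 SE, 0.571). *Sulf2*, which takes 6-O-sulfate off again, was at -0.56 ± 0.17 SE in 66cl4 in BALB/c mice (adjusted p = 0.0881 by limma), where *Hs6st1* was lower.

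Between lines the other pathway genes gave 13, 6, 15 and 15 called probe sets of 46 in BALB/c control, BALB/c BPTF KD, NSG control and NSG BPTF KD tumors (limma), or 28.3%, 13%, 32.6% and 32.6%, beside the 23.6%, 12.2%, 34.1% and 39.3% of all probe sets. *Ugdh*, which makes the glucuronic acid precursor, was higher in 67NR by 1.13, 0.62 and 0.68 in BALB/c control, BALB/c BPTF KD and NSG BPTF KD tumors, and *Extl2*, a glycosyltransferase related to the polymerases, was lower on 1422539_at by -1.11, -1.05 and -1.14 in BALB/c BPTF KD, NSG control and NSG BPTF KD tumors (all called by limma). Between hosts, 3, 6, 3 and 8 were called in 67NR control, 67NR BPTF KD, 66cl4 control and 66cl4 BPTF KD tumors, or 6.52%, 13%, 6.52% and 17.4%, beside 8.26%, 14.2%, 3.31% and 11.0% of all probe sets. *Gusb* on 1430332_a_at was higher in NSG mice in each, by 2.31 ± 0.20 SE, 2.23 ± 0.37 SE, 2.54 ± 0.21 SE and 3.14 ± 0.12 SE (limma adjusted p = 0.000951, 0.00204, 0.00433 and 9.98e-10). Its other, brighter probe set (1448124_at) disagreed, at 0.37 ± 0.11 SE, -0.09 ± 0.25 SE, -0.58 ± 0.17 SE and -0.11 ± 0.17 SE, and was called in none of the 4 (adjusted p = 0.0716 to 0.858 by limma).

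*Bptf* was not shown to follow the labels in 67NR tumors. The enzymes were therefore also set against the *Bptf* level of each tumor, within the 6 tumors labelled BPTF KD of a line and host. This comparison was added after the values were seen. Of 48 relations with the brightest *Bptf* probe set, 2 had an unadjusted exact permutation p under 0.05 by Pearson and 3 by Spearman correlation, and 0 passed after Benjamini-Hochberg adjustment by either. *Glce* on 1428374_at gave both of the former and 2 of the latter, and *Ext2* in 67NR in BALB/c mice the other (rho = 0.943, exact permutation p = 0.0167, adjusted 0.4; r = 0.662, exact permutation p = 0.126). In 67NR in NSG mice Pearson r was 0.966 (exact permutation p = 0.00278, adjusted 0.133) and Spearman rho 0.943 (exact permutation p = 0.0167, adjusted 0.4), and r was 0.932 without the 2 tumors farthest from the median of *Bptf*. In 67NR in BALB/c mice r was 0.865 (exact permutation p = 0.00972, adjusted 0.233) and rho 0.886 (exact permutation p = 0.0333, adjusted 0.533), and r was 0.776 without the 2 farthest. As high an r with *Bptf* was reached by 0.605% and 3.42% of all probe sets. In 66cl4 tumors r was -0.04 in BALB/c and 0.579 in NSG mice (exact permutation p = 0.951 and 0.233). RNA integrity moved along: in 67NR in NSG mice the 3′ minus 5′ difference correlated at r = -0.777 with *Glce* and -0.809 with *Bptf*, and its part was not tested. Over the 4 *Bptf* probe sets r for *Glce* on 1428374_at ran from 0.480 to 0.966 in NSG and 0.837 to 0.936 in BALB/c mice for 67NR. For 66cl4 it ran from 0.101 to 0.924 in NSG and from -0.371 to 0.634 in BALB/c mice. A high r was thus not limited to 67NR. The 0.924 was with 1427311_at, and was 0.497 without the 2 tumors farthest from the median of that probe set. The dimmer probe set of *Glce* (1425876_a_at) did not share the relation with the brightest *Bptf* probe set. Its r was -0.5, -0.568, -0.207 and 0.233 in 67NR and 66cl4 of BALB/c and of NSG mice (exact permutation p = 0.237 to 0.701).

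For *Hs6st1* the same relation gave r = 0.756, 0.328, 0.815 and 0.705 in 67NR and 66cl4 of BALB/c and of NSG mice, none past the test (adjusted exact permutation p = 0.64 to 0.784). Without the 2 tumors farthest from the median of *Bptf* these became 0.656, 0.838, -0.161 and 0.421. The positive r in 67NR of NSG mice was not seen without those tumors. Leaving out tumors by their *Bptf* level narrows its range, so that this fall cannot show what the relation rested on. Among tumors labelled BPTF KD of 67NR in NSG mice *Hs6st1* correlated with the 3′ minus 5′ difference at r = -0.969. In those of 67NR in BALB/c mice it did so at -0.703, and the part of RNA integrity was not tested. Over the 4 *Bptf* probe sets r for *Hs6st1* ran from 0.748 to 0.876 in 67NR and -0.304 to 0.836 in 66cl4 of BALB/c mice. In NSG mice it ran from 0.537 to 0.879 in 67NR and 0.169 to 0.969 in 66cl4. In 67NR in BALB/c mice the 2 tumors labelled BPTF KD with the lowest *Bptf* on 1427310_at, replicates 1 (7.36) and 6 (7.23), were also the lowest of the 6 in *Hs6st1* (6.5 and 6.49) and in *Glce* on 1428374_at (8.78 and 8.34), whereas the others lay at 8.42 to 10.25, 7.23 to 7.76 and 9.20 to 10.28. On the brightest *Bptf* probe set, 1456615_a_at, replicate 6 was at 8.34 but replicate 1 at 9.82, beside 9.83 in replicate 4 and 9.73 to 10.31 in controls. In this group the 3′ minus 5′ difference correlated at r = -0.765 with 1427310_at and -0.299 with 1456615_a_at.

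**Figure D4:**
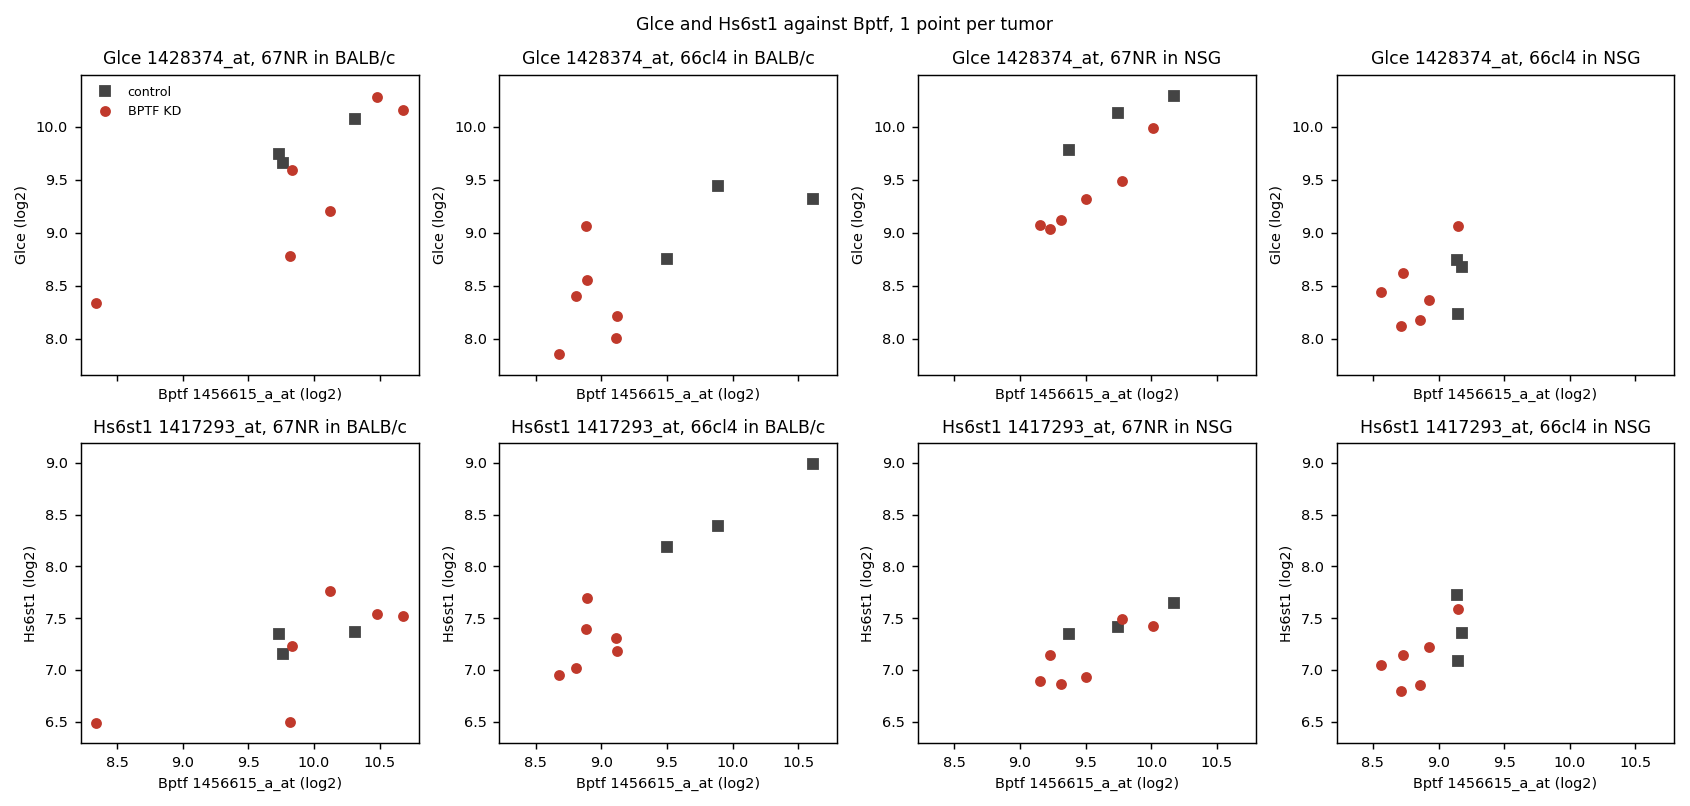
Log2 value of *Glce* 1428374_at (top row) and *Hs6st1* 1417293_at (bottom row) against *Bptf* 1456615_a_at (x axes) in each tumor, by line and host; grey squares are control and red circles BPTF KD tumors. In 67NR tumors of NSG mice the 6 red points lie along a line for *Glce* (r = 0.966), and in 66cl4 of BALB/c mice the 3 controls lie above all BPTF KD tumors in both *Bptf* and *Hs6st1*.

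Over all 36 tumors, the genes whose levels followed *Hs6st1* most closely were *Zdhhc9* (Pearson r = 0.890, Spearman rho = 0.850), *Ints5* (r = 0.848, rho = 0.747) and *Itsn1* (r = 0.842, rho = 0.714). For *Ndst3* they were *Cldn34c1* (r = 0.742, rho = 0.772), *Epn2* (r = 0.725, rho = 0.627) and *Car5b* (r = 0.721, rho = 0.716). The points share lines, hosts and labels, and the correlations are a description of likeness among 12393 genes read from their brightest probe sets.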

How the data were processed

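RNA from 36 tumors was hybridised to Affymetrix mouse arrays. The authors deposited log2 values made by RMA, a tool listed with no version in the submitters' processing notes. The background model and quantile step of RMA compress low intensities, so that changes of dim probe sets such as those of *Ndst3* and *Ndst4* may be understated. The table held 22690 probe sets, of which 64 controls were left out. Probe sets were named through the platform annotation (20380 with 1 symbol, of which 20351 were found in RefSeq, and 691 with several). No further normalization or filter was applied, and no pair of arrays held identical values.

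Groups were compared by limma 3.58.1 in R 4.3.3 with the tumors of the 2 groups in the fit (18 tumors for interactions) and Benjamini-Hochberg adjustment over all 22626 probe sets at 0.05, in 16 comparisons. *Bptf* was tested by two-sided exact permutation of 9 tumors. Tables and figures were made with matplotlib 3.10.9, scipy 1.17.1, pandas 2.3.3 and numpy 2.4.6 under Python 3.11.15. The fit was tested on simulated data. Arrays give no counts, so that their number limits the precision. Named were every probe set of the 8 enzymes, other pathway genes past the threshold or with the smallest p (up to 4 a comparison), the 3 genes most like an enzyme with a BPTF KD call, and *Bptf*. The enzymes and lists were chosen with earlier results of these data known. Alternatives tried were the methods' t-test, a replicate block, 1 fit over 36 tumors, leaving out the dimmest 25%, quantile normalization, subtraction of array medians, an RNA integrity covariate, 1 probe set a gene, and leaving out each tumor. Controls have replicates 1 to 3 only, so between BPTF KD and control tumors the replicate block compares those numbers alone.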

Additional observations from a re-analysis of the deposited data

Results flagged for a closer look

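*Ndst4* on 1450195_at held the only values set apart from the rest of their group, by Dixon's criterion over 48 sets of 6 tumors, of which chance gives about 1 in 20. Among 67NR tumors labelled BPTF KD in BALB/c mice, replicate 2 was at 5.92 and the next tumor at 5.63. Among 66cl4 BPTF KD tumors in BALB/c mice, replicate 5 was at 5.33 and the next at 5.70. No difference of the BPTF KD effect between lines or hosts passed for an enzyme.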

How the results depend on the processing

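Counts below are enzyme genes called of 8. For BPTF KD against control, the count in 67NR in BALB/c mice was 0, and 4 with the fit of all 36 tumors (*Ndst2*, *Ndst3*, *Ndst4* and *Hs2st1*). In 66cl4 in BALB/c mice it was 1, and 0 by the methods' t-test, with a replicate block or with the RNA integrity covariate. In 67NR in NSG mice it was 1, 2 with the fit of all 36 tumors (*Hs2st1* added) or a replicate block (*Glce* added), and 0 by the methods' t-test, without the dimmest 25% (which left *Ndst3* untested) or with the RNA integrity covariate. Without 1 tumor the counts ran from 0 to 2 and from 0 to 3 in the last 2, and stayed at 0 in 67NR in BALB/c mice. 66cl4 in NSG mice gave 0 in all fits.

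Between lines, BALB/c controls gave 7, and 2 by the methods' t-test, 4 with a replicate block, 4 with the RNA integrity covariate, 5 with the fit of all 36 tumors, 6 with 1 probe set a gene or without the dimmest 25%, and 3 to 5 without 1 tumor. BALB/c BPTF KD tumors gave 1, and 5 with the fit of all 36 tumors, 2 without the dimmest 25%, 3 after quantile normalization, 2 after subtraction of array medians, 3 with the RNA integrity covariate and 1 to 3 without 1 tumor. NSG controls gave 5, 0 with the RNA integrity covariate, 4 with every other setting but that without the dimmest 25%, and 4 to 5 without 1 tumor. NSG BPTF KD tumors gave 7, and 6 without the dimmest 25%. Between hosts, 67NR controls gave 2, and 0 by the methods' t-test or with the RNA integrity covariate, and 0 to 3 without 1 tumor. 66cl4 controls gave 0, and 1 with the fit of all 36 tumors, without the dimmest 25%, after quantile normalization or after subtraction of array medians, 2 with the RNA integrity covariate, 3 with a replicate block and 0 to 3 without 1 tumor. 66cl4 BPTF KD tumors gave 2, 1 with the fit of all 36 tumors, by the methods' t-test or without the dimmest 25%, 3 with the RNA integrity covariate, and 1 to 2 without 1 tumor. 67NR BPTF KD tumors gave 3, and 4 with the fit of all 36 tumors or the RNA integrity covariate. The line difference of the BPTF KD effect in NSG mice gave 0, 1 with the RNA integrity covariate and 0 to 3 without 1 tumor. The host difference in 67NR gave 0, and 1 with the fit of all 36 tumors. The cause of these changes was not tested.

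Signs turned for small differences between BPTF KD and control tumors. With a replicate block, *Ext2* was at -0.127, -0.14 and -0.143 in 66cl4 in BALB/c, 67NR in NSG and 66cl4 in NSG mice, *Glce* 1425876_a_at at 0.02 in 67NR in BALB/c, *Ndst3* at 0.03 in 66cl4 in BALB/c, and *Ndst2* and *Ndst4* 1421318_at at -0.093 and -0.04 in 66cl4 in NSG mice. After quantile normalization, *Ext2* was at 0.007 in 67NR in BALB/c, *Ndst2* and *Hs2st1* 1450730_at at 0.033 and 0.042 in 66cl4 in BALB/c, and *Ndst4* 1421318_at at -0.028 in 66cl4 in NSG mice. After subtraction of array medians, *Ndst2* and *Hs2st1* 1450730_at were at 0.021 and 0.033 in 66cl4 in BALB/c, and *Hs2st1* 1450729_at at 0.012 in 66cl4 in NSG mice. With the RNA integrity covariate, *Ndst2* was at 0.026 in 66cl4 in BALB/c, 0.026 in 67NR in NSG and -0.008 in 66cl4 in NSG mice, and *Hs2st1* 1450730_at at 0.052 in 66cl4 in BALB/c mice. Without 1 tumor, *Ext2* ran from -0.104 to 0.05, -0.041 to 0.182 and -0.033 to 0.063 in 67NR in BALB/c, 66cl4 in BALB/c and 67NR in NSG mice, *Hs6st1* from -0.234 to 0.02 in 67NR in BALB/c, *Ndst2* from -0.15 to 0.06 and *Hs2st1* 1450730_at from -0.102 to 0.053 in 66cl4 in BALB/c, and *Ndst2*, *Ndst4* 1421318_at and *Glce* 1428374_at from -0.033 to 0.045, -0.003 to 0.052 and -0.247 to 0.008 in 66cl4 in NSG mice.

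Over single probe sets, 534 values under other settings kept direction and side of the threshold, 34 lost and 6 gained the call, and 18 turned sign. Without 1 tumor 628 kept both, 54 lost and 5 gained the call, and 21 turned sign. Over all probe sets, 66cl4 in BALB/c mice gave 64 calls, 7 with the fit of all 36 tumors, 0 by the methods' t-test, with a replicate block or with the RNA integrity covariate, and 0 to 3615 without 1 tumor. 67NR in NSG mice gave 218 calls, 1538 with a replicate block and 13 by the methods' t-test, and 67NR in BALB/c mice 0, and 997 with the fit of all 36 tumors. Replicate numbers gave no pairing: deviations of same-numbered tumors correlated at -0.447 to 0.693, and in no comparison was every pair over 0.1. The replicate block was not run for the differences of the BPTF KD effect. Between BPTF KD and control tumors, its values, calls and turned signs rest on BPTF KD replicates 1 to 3 alone. Signal over background was not given, which limits dim probe sets such as those of *Ndst3* and *Ndst4*.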
